A study of Mus musculus with 74 samples.

Results

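The libraries described here come from mice homozygous for the C442G allele of Aire and from wild-type mice of the same line, 9 libraries of the 74 in the series. The members were taken by genotype label: 6 homozygous mice (Aire C442G/C442G, mice 80, 83, 84, 90, 92 and 93) and 3 wild-type mice (Aire +/+, mice 86, 88 and 89). All were C57BL/6, 4 to 7 weeks old. No other allele, transgene or treatment is labelled in either group. The 5 heterozygotes of the line (Aire +/C442G), 4 Aire -/- mice with 3 wild-type mice of the null line, and 3 Y86C homozygotes (Aire Y86C/Y86C) with 3 wild-type mice of the Y86C line serve below as points of reference, and all of these are labelled C57BL/6 at the same age. A further null-line library, whose title and genotype label disagree, was put in no group. Each library holds mTEChi, sorted epithelial cells of the thymic medulla that carry much MHC class II on their surface. It was prepared by bulk MARS-seq, which counts the 3′ ends of transcripts. The labels do not state whether mice share a litter, a sort day or a library pool, so the p-values measure the spread between these mice.

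AIRE is a nuclear regulator that lets mature medullary thymic epithelial cells transcribe very many genes that otherwise belong to single peripheral tissues, such as insulin, albumin or crystallins. Displaying these products to developing thymocytes removes or diverts self-reactive T cells, and people or mice lacking AIRE develop multi-organ autoimmunity. The protein carries a CARD domain for multimerisation, a SAND domain and a pair of PHD zinc fingers. The C442G allele replaces a cysteine with a glycine in the second of these fingers.

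The wild-type libraries held 1751301 to 3658813 counts and the homozygous libraries 2834108 to 3748607. Every pair of libraries of one group differed by more than sampling noise, with a chi-square per degree of freedom of 2.2 to 11.4 over genes. The summed level of Y-linked genes was high in 1 of 3 wild-type and 3 of 6 homozygous libraries. With that level as a term in the fit, 5649 genes were called in place of 5802. The epithelial keratin Krt8 stood at 1757 ± 312 CPM in wild type and 1949.8 ± 154 CPM in homozygotes (mean ± SD, n = 3 and 6) and did not pass the test. Of 11 epithelial identity genes 5 were called higher and 2 lower, beside 19.5% and 23.1% of all genes. CPM are counts scaled to a common library total after TMM normalization. A gene was called at an adjusted p under 0.05 in edgeR's quasi-likelihood test with Benjamini-Hochberg adjustment over all 13624 genes tested.

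The Aire transcript itself was higher in the mutant cells. Its tags stood at 2117, 1829.5 and 2009.8 CPM in the 3 wild-type mice and at 3874, 4083 and 4600.4 CPM (lowest, median, highest) in the 6 homozygotes. No homozygous library overlapped a wild-type one. The log2 change was 1.07 ± 0.12 (SE, adjusted p = 1.03e-08), and heterozygotes lay between at 2447, 2725 and 3297 CPM. Aire (ENSMUSG00000000731.15) occupies chr10:78030022-78043610 on the minus strand of GRCm38. Tags at the 3′ end do not read the altered codon, so they check no genotype label. Dnmt3l, a cofactor of DNA methylation in germ cells whose annotated span overlaps that of Aire on the opposite strand, rose too, with a log2 change of 0.88 ± 0.13 (adjusted p = 1.35e-06). The strand setting of the counting is not given in the sources used here, so any tags inside the shared stretch cannot be assigned to either gene.

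**Figure D1:**
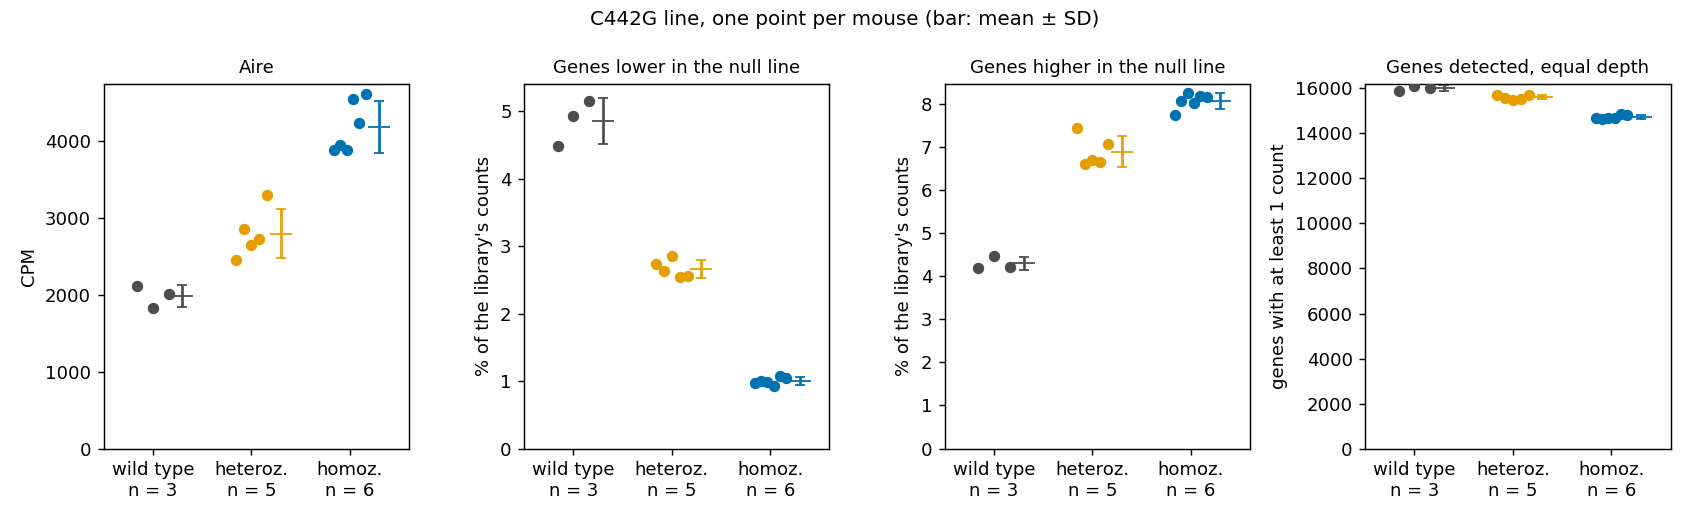
Each point is 1 mouse of the C442G line, and bars give mean ± SD. The panels show Aire tags (CPM), the percentage of each library's counts in the genes at least 2-fold lower or at least 2-fold higher in Aire -/- mice, and the genes with at least 1 count at a depth of 1751301. Homozygotes are highest for Aire and for the genes higher in the null line, and lowest in the other panels, with heterozygotes between.

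Homozygotes differed from wild type in 5802 of 13624 genes, 42.6% of those tested. Of these, 2655 genes (19.5%) were higher and 3147 (23.1%) were lower. Large changes were mostly losses: 2059 genes (15.1%) were called at least 2-fold lower and 656 (4.82%) at least 2-fold higher. The 2059 genes had a median of 10.3 CPM in wild type and 1.8 CPM in homozygotes, while the 656 had medians of 13.8 and 34.9 CPM. In 1906 and 618 of them the libraries of the 2 groups did not overlap, against 39.3% of all genes tested. The median change over all genes was 0.00. The authors' deposited table of the same comparison lists 6386 genes with an adjusted p under 0.05, and all 5324 called in both had the same direction.

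At an equal depth of 1751301 counts, 15884, 16124 and 16030 genes had at least 1 count in the wild-type mice. In the homozygotes the numbers ran from 14635 to 14866. The groups did not overlap, and the means were 16012.7 ± 120.9 and 14722.2 ± 96.7 genes (SD, n = 3 and 6; difference -1290.5, exact 2-sided permutation test, p = 0.0238). Without any 1 wild-type mouse the difference was -1354.8 to -1234.8, and p = 0.0714 was the smallest that an exact permutation of 2 against 6 mice gives. Heterozygotes had 15489 to 15719 genes, above all homozygotes and below all wild-type mice.

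Some genes were almost lost. Prss29, a tryptase-family serine protease, had 121, 116 and 168 CPM in the wild-type mice and 0, 0.442 and 0.943 CPM (lowest, median, highest) in homozygotes. Its log2 change was -8.05 ± 0.26 (SE, adjusted p = 2.37e-20). Ins2, 1 of the mouse insulin genes, had 62.6, 98.5 and 104 CPM in wild type against 0, 0.139 and 1.1 CPM in homozygotes (log2 change -7.98 ± 0.30, adjusted p = 1.24e-18). In both genes every homozygote lay more than an order of magnitude below every wild-type mouse. Lcn8, an epididymal lipocalin, had 40.3, 77.1 and 66.1 CPM in wild type and at most 0.368 CPM in homozygotes.

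Several genes were at the limit of detection in all 6 homozygotes. The late cornified envelope genes Lce1e and Lce1h, the trypsin gene Try4 and R3hdml had no count in any of them. Against a floor of 3 counts over the group, Lce1e was at least 92.9-fold, Lce1h at least 87.9-fold, Try4 at least 69.9-fold and R3hdml at least 63.3-fold lower. The Paneth cell defensin Defa21 had 333 counts in wild type and 1 in the homozygotes, a depth-corrected ratio of 821 (95% exact interval 146 to 32528). Embryonic beta globin Hbb-y had 501 and 3 counts, a ratio of 412 (95% exact interval 140.1 to 2004). The glutathione transferase Gstm3 had 413 and 3 counts, a ratio of 339.5 (95% exact interval 115 to 1653). These floors and intervals cover counting error only. In all, 32 of the 2059 genes had no count in any homozygote. Defa21, Lce1e, Lce1h, Try4 and Gstm3 have close paralogs, and how the authors assigned tags that match several copies is not given in the sources used here.

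**Figure D2:**
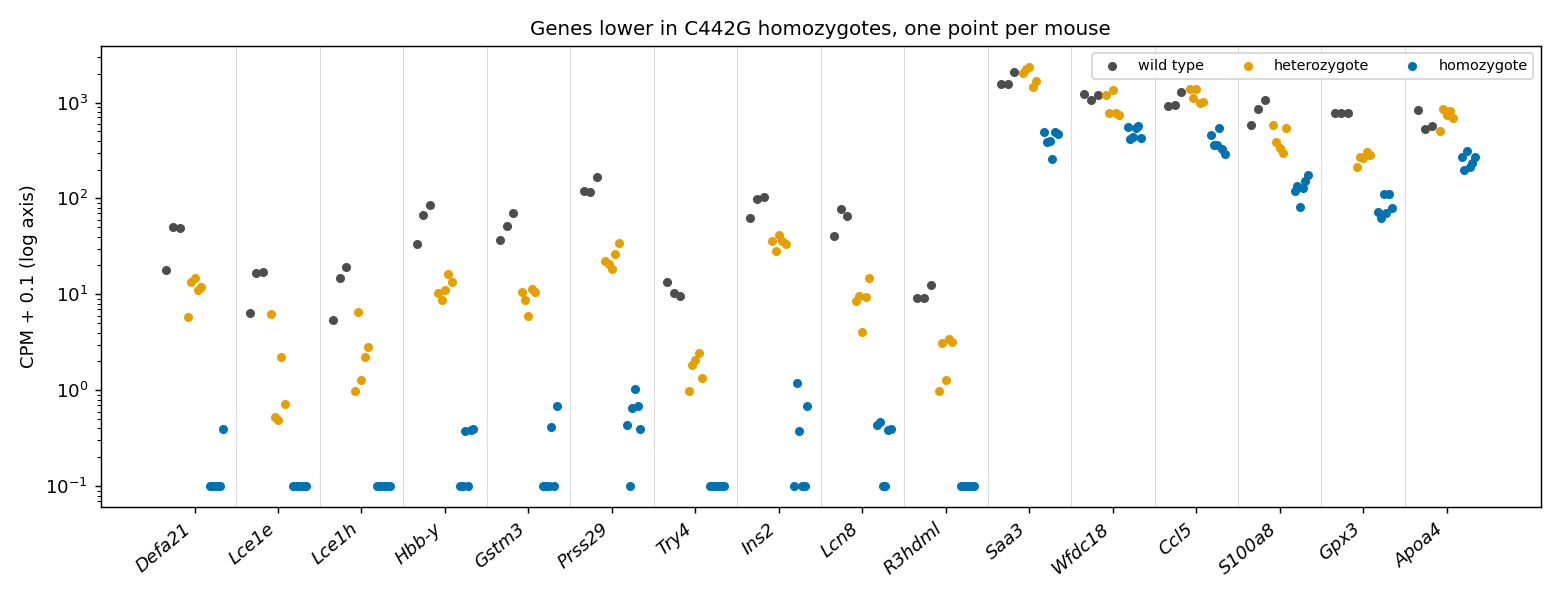
CPM + 0.1 on a log axis, 1 point per mouse, for the 10 largest falls among called genes whose higher group averaged 10 CPM or more and whose groups did not overlap (left) and the 6 most abundant genes called at least 2-fold lower (right). For the first 10 the homozygotes lie at or under 1.1 CPM and within each gene every heterozygote lies above every homozygote, while in Saa3, Ccl5 and Apoa4 the heterozygotes share the range of wild type.

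The stretches upstream of a few such genes show how different their promoters are in sequence. Shown are the 120 bases before the annotated start (RefSeq, GRCm38.p6), 5′ to 3′, with CG dinucleotides in capitals. Avp, Hbb-y and Prss29 fell, and Syn2, Ctla4 and Aire rose; they were chosen after their values were seen.
Avp, chr2:130582589-130582708, minus strand: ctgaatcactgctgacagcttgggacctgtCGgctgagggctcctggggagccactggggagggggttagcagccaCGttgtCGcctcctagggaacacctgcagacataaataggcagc
Hbb-y, chr7:103853208-103853327, minus strand: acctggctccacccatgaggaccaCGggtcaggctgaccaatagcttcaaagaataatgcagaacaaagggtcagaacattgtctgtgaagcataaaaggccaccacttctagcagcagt
Prss29, chr17:25318534-25318653, plus strand: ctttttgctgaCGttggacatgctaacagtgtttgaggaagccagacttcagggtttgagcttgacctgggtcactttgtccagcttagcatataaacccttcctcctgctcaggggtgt
Syn2, chr6:115134782-115134901, plus strand: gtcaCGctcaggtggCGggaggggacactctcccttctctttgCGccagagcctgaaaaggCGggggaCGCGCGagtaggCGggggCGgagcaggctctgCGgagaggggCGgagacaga
Ctla4, chr1:60908905-60909024, plus strand: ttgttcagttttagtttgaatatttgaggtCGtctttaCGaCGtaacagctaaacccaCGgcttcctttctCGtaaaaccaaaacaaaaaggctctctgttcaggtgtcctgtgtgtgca
Aire, chr10:78043611-78043730, minus strand: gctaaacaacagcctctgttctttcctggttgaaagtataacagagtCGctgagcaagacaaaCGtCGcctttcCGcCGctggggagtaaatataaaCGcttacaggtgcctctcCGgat
In the full window of 300 bases, Avp, Hbb-y and Prss29 held 8, 1 and 4 CG dinucleotides, and Syn2, Ctla4 and Aire held 21, 8 and 16. The median over 27025 promoters was 7. At least 1 CG stood in 94.2% of them. The letters TATAAA begin 29 bases before the start in both Prss29 and Aire and are in none of the other 4 stretches on this strand; on either strand, 14.2% of all promoters hold them somewhere in the window. A comparison of the composition of all fallen promoters is void, since an entry was found for only 76.7% of the fallen genes and 76.8% of the raised ones.

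Losses ran through most lists of peripheral tissue genes. Of 30 genes known as Aire-induced antigens, 28 were in the table and 27 tested. Of these, 24 were called lower and 2 higher, beside 23.1% and 19.5% of all genes, with a median log2 change of -4.55. Since these genes were listed for their known dependence on Aire, their direction is no independent evidence. Vasopressin (Avp) fell from 97.6, 142 and 169 CPM in wild type to 0.33, 0.569 and 2.03 CPM (lowest, median, highest) in homozygotes, a log2 change of -7.30 ± 0.24 (adjusted p = 3.04e-20). Somatostatin (Sst) fell from 137, 119 and 157 CPM to 0.277, 0.987 and 2.04 CPM (log2 change -6.93 ± 0.24, adjusted p = 4.97e-19). The exceptions were Csn2 and Resp18, which rose, and Crp, an acute-phase protein, at 12.8 ± 2.72 CPM in wild type and 18.3 ± 5.57 CPM in homozygotes (SD, adjusted p = 0.123).

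Among hormones of the endocrine pancreas and gut, 17 of 20 tested genes were lower and 0 higher (median -4.23). Over all genes, 23.1% were lower and 19.5% higher, shares that apply to each list of this paragraph. Cholecystokinin (Cck) and pancreatic polypeptide (Ppy) changed by -5.63 ± 0.22 and -7.30 ± 0.29 on the log2 scale. Secretin (Sct) and Scg5 did not pass, with log2 changes of 0.28 and 0.06. Acinar pancreas enzymes were lower in 13 of 15 and higher in 0 (median -4.38), with colipase (Clps) at -4.38 ± 0.21 and the elastases Cela3b and Cela2a at -5.87 ± 0.32 and -5.91 ± 0.45. The protease Ctrl did not pass, with a log2 change of -0.13.

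Liver genes were lower in 14 of 18 and higher in 0 (median -3.35). Beside this list and the intestinal one below stand 23.1% lower and 19.5% higher over all genes. Haptoglobin (Hp), albumin (Alb) and the fibrinogen chains Fgb and Fgg had log2 changes of -5.70 ± 0.28, -6.94 ± 0.42, -5.94 ± 0.37 and -6.25 ± 0.37. Apoc3, Apoh, Ttr and Crp did not pass. Small-intestinal and Paneth cell genes were lower in 18 of 23 (median -1.78), with the fatty acid carrier Fabp2 at -4.22 ± 0.21 and the mucin Muc2 at -5.29 ± 0.38. Reg3g, an antibacterial lectin and the most abundant of the list, fell from 2474 ± 451 CPM in wild type to 1599 ± 148 CPM (SD; log2 change -0.63 ± 0.12, adjusted p = 4.86e-05).

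Neuropeptides and neuronal genes were lower in 17 of 20 and higher in 1 (median -3.85). For each list of this paragraph the shares over all genes were 23.1% lower and 19.5% higher. Oxytocin (Oxt) fell from 127, 160.0 and 209.9 CPM to 0, 0.712 and 2.62 CPM (lowest, median, highest), and Pomc, the precursor of ACTH and endorphin, fell from 210.5, 260.2 and 274 CPM to 18, 21.5 and 24.5 CPM. Pomc thus remained detectable in every homozygote. The 1 raised member was the synaptic vesicle protein Syt1 (log2 change 0.74 ± 0.11). Lens and retina genes were lower in 11 of 12 (median -3.06), with the crystallins Crybb2 and Cryaa at -6.97 ± 0.40 and -6.14 ± 0.30 and Cryab at -0.88 ± 0.11. The 1 raised member was the retinal opsin Rgr (log2 change 2.49 ± 0.57). Muscle and heart genes were lower in 17 of 19 and higher in 0 (median -2.41), from the atrial peptide Nppa at -7.65 ± 0.32 to cardiac troponin Tnnt2 at -0.35 ± 0.11.

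Milk, saliva and other secretory genes were lower in 16 of 19 and higher in 1 (median -4.92), beside 23.1% and 19.5% of all genes. The odorant-binding Obp2a changed by -6.65 ± 0.27 and the whey protein Wap by -6.62 ± 0.40. The caseins divided. Csn1s2a and Csn1s1 changed by -5.55 and -3.96 on the log2 scale, while Csn2, beta-casein, rose from 583, 1162 and 895 CPM to 2402, 2826 and 3337 CPM (lowest, median, highest; log2 change 1.70 ± 0.18, adjusted p = 4.12e-08). Of 10 germ cell genes tested 4 were lower and 3 higher (median 0.13), beside 23.1% and 19.5% of all genes. Without the filter on low counts all 17 members with counts in the line were tested. Of these, 9 were called lower, beside 4119 of all 16306 genes, so the balance of this list rests on the filter. The egg-coat genes moved apart, Zp3 by -4.78 ± 0.27 and Zp2 by 1.35 ± 0.12.

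**Figure D3:**
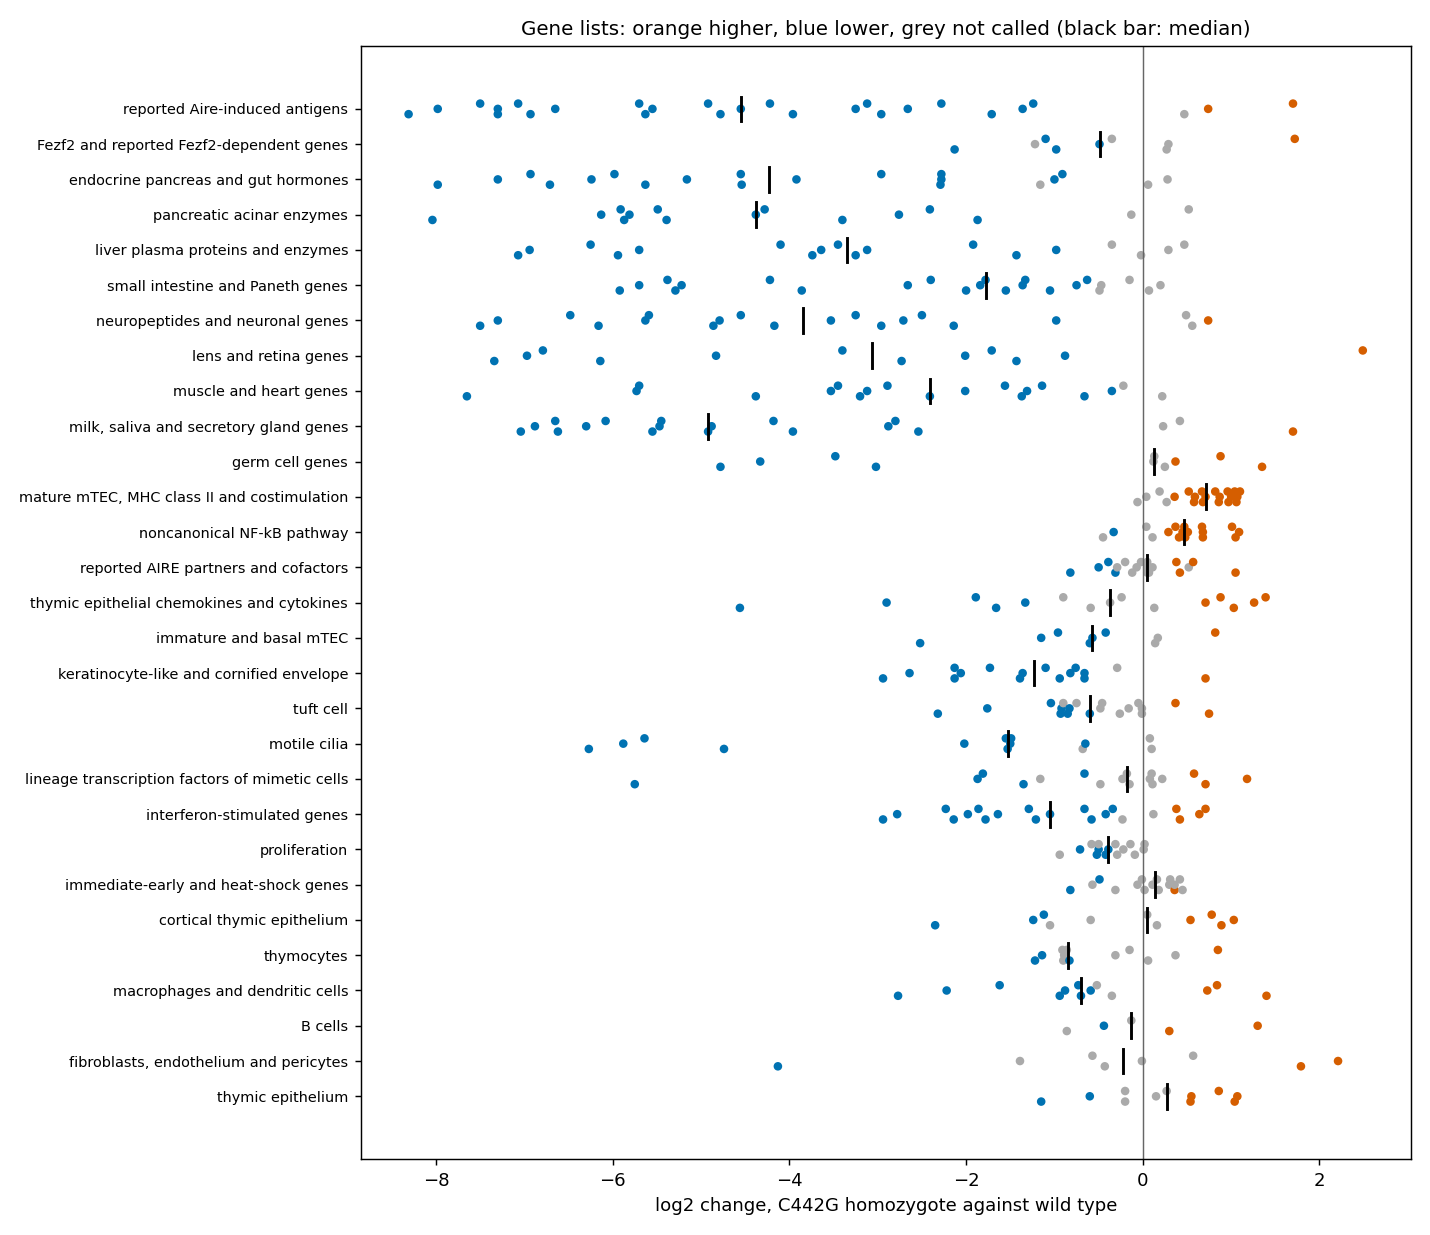
Log2 change of each tested member of 29 gene lists, C442G homozygotes against wild type. Orange is called higher, blue called lower, grey not called, and the black bar marks the list median. Medians of the lists of peripheral tissue genes go down to -4.92, with germ cell genes at 0.13, while the mature mTEC and NF-kB lists lie mostly above 0.

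Not every abundant loss was a deep one. Among the most abundant genes called at least 2-fold lower, Saa3, an acute-phase serum amyloid, had 1549, 1543 and 2096 CPM in wild type and 258, 432.5 and 490.5 CPM (lowest, median, highest) in homozygotes (log2 change -2.06 ± 0.17, adjusted p = 4.04e-09). The chemokine Ccl5 changed by -1.44 ± 0.16, the whey acidic protein-like Wfdc18 by -1.24 ± 0.17, and the apolipoprotein Apoa4 by -1.36 ± 0.16. Each still had at least 198 CPM in every homozygote. Gpx3, a secreted glutathione peroxidase, fell further, from 785, 770.1 and 777 CPM to 62.9, 76 and 111 CPM (log2 change -3.20 ± 0.14). S100a8, a calprotectin subunit, changed by -2.66 ± 0.26.

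Genes that rose did so by smaller factors. Among called genes whose higher group averaged 10 CPM or more and whose groups did not overlap, the largest rise was in Ctla4, the inhibitory receptor of T cells for CD80 and CD86, from 3.71, 6.57 and 6.39 CPM in wild type to 58.3, 61.3 and 86.9 CPM (lowest, median, highest) in homozygotes (log2 change 3.49 ± 0.23, adjusted p = 2.81e-13). Mouse 83 lay above the other homozygotes. Beside it, the summed thymocyte list was 174 to 307 CPM in wild type and 146 to 244 CPM in homozygotes, with Cd3d, Lck and Ptprc called lower and Cd4 higher. Syn2, a synaptic vesicle phosphoprotein, rose from 43, 45.7 and 35.7 CPM to 254, 280.3 and 304 CPM (log2 change 2.74 ± 0.14, adjusted p = 2.08e-16).

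Stac, an adaptor protein, rose from 9.02, 9 and 13.3 CPM to 63.5, 65.8 and 73.2 CPM. The other genes among the 10 largest rises under the same limits were Fam19a1, a secreted neuronal protein, Ptchd4, the olfactory receptor Olfr1136, the growth factor Fgf10, the acyl-CoA thioesterase Acot12, Ptgs2os2 and the defensin-related AY761185. Their log2 changes ran from 2.44 to 3.18, with no overlap of the groups in any. AY761185, the smallest at 2.44 ± 0.47, lies at chr8:20943694-20944710, near the fallen Defa21 at chr8:21025545-21026516. Its heterozygotes ran from 13.5 to 47.3 CPM, and how tags matching several defensin copies were assigned is not given. Fgf10 stayed low, at 8.1 to 12.5 CPM in homozygotes.

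Among the most abundant genes called at least 2-fold higher was H2-Aa, an MHC class II alpha chain, at 10435, 12271 and 9485 CPM in wild type and 16798, 22572 and 26754 CPM (lowest, median, highest) in homozygotes (log2 change 1.04 ± 0.16, adjusted p = 2.02e-06). Cd52, a small surface glycoprotein of lymphocytes, rose from 2130.2, 2122 and 2728 CPM to 5184, 5283 and 6659 CPM (log2 change 1.29 ± 0.15). The S100 family member S100a14 changed by 1.02 ± 0.11. The metallothionein Mt1 changed by 1.07 ± 0.32 with overlapping groups, and it was no longer called without wild-type mouse 86 or without wild-type mouse 88.

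**Figure D4:**
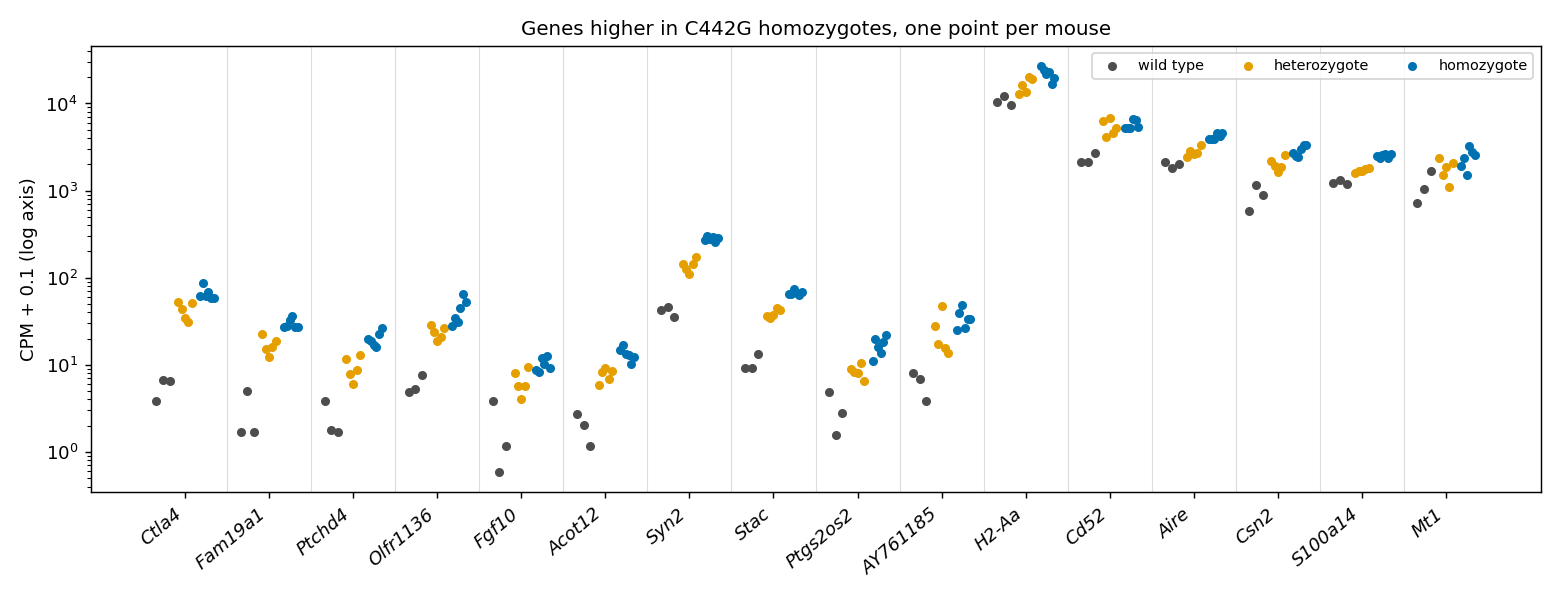
CPM + 0.1 on a log axis, 1 point per mouse, for the 10 largest rises under the same limits of level and overlap (left) and the 6 most abundant genes called at least 2-fold higher (right). Homozygotes exceed all wild-type mice except in Mt1, and in Cd52 heterozygotes and homozygotes share a range.

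Of 21 tested genes of mTEC maturation, MHC class II and costimulation, 17 were higher and 0 lower, beside 19.5% and 23.1% of all genes, with a median log2 change of 0.71 beside 0.00 over all genes. The lysosomal protease Ctss, the class II peptide editor H2-DMb1 and the ICOS ligand Icosl changed by 0.96 ± 0.10, 1.0 ± 0.12 and 1.10 ± 0.13. Costimulatory Cd80 and Cd86 changed by 0.86 ± 0.15 and 0.68 ± 0.16. Cd40, Cldn3, Cldn7 and Fezf2 did not pass. The summed level of the list was 49822.4 to 56857 CPM in wild type and 84220.2 to 108531 CPM in homozygotes.

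Genes of NF-kB signalling were higher in 13 of 17 and lower in 1 (median 0.47), beside 19.5% and 23.1% of all genes. The list holds canonical members and inhibitors, such as Rela, Nfkb1 and Nfkbia. It also holds members of the noncanonical arm, which drives mTEC maturation downstream of RANK and CD40. The kinase NIK (Map3k14) had 90.7, 80 and 71.4 CPM in wild type and 146, 169.9 and 196 CPM (lowest, median, highest) in homozygotes (log2 change 1.09 ± 0.12, adjusted p = 2.87e-09). The transcription factor subunit Relb changed by 1.01 ± 0.13 and the adaptor Traf6 by 1.05 ± 0.14. The receptor gene Ltbr was lower (-0.33 ± 0.12), and Cd40, Chuk and Tnfaip3 did not pass. Reported AIRE partners had no common direction, with 4 of 19 higher, 4 lower and a median of 0.05, shares near those of all genes. The deacetylase Sirt1 changed by 1.05 ± 0.16 and the DNA-end binding Xrcc5 by -0.82 ± 0.17. Without homozygous mouse 90 or wild-type mouse 88, 1 of these partners was called lower, and 2 were without homozygous mouse 84 or wild-type mouse 89, with the Y-linked level as a term or without the filter.

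Chemokines and cytokines divided evenly, 5 of 15 higher and 5 lower (median -0.37), beside 19.5% and 23.1% of all genes. Il15, a survival cytokine of natural killer and innate-like T cells, rose from 83.8, 86.3 and 73.5 CPM to 186, 218 and 233 CPM (lowest, median, highest), and the interleukin-1 antagonist Il1rn changed by 1.26 ± 0.12. Xcl1, which attracts dendritic cells to the medulla, fell from 21.7, 43.3 and 41 CPM to 0.277, 1.2 and 2.91 CPM (log2 change -4.56 ± 0.36, adjusted p = 9.48e-10). Tslp changed by -2.90 ± 0.35. Interferon-stimulated genes were lower in 15 of 21 and higher in 4 (median -1.05), with Isg15 at -1.98 ± 0.14, Rsad2 at -2.94 ± 0.29 and Ifit2 at -2.23 ± 0.25. Ifit1, Usp18, Irf1 and Cxcl10 rose, by 0.38 to 0.71 on the log2 scale.

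Lists for the mimetic cells of the medulla, which share programmes with peripheral cell types, mostly leaned down. Keratinocyte and cornified envelope genes were lower in 14 of 16 and higher in 1 (median -1.23), with the keratins Krt10 and Krt1 at -2.13 ± 0.18 and -2.64 ± 0.29. Genes of motile cilia were lower in 10 of 13 (median -1.53). The multiciliation regulator Mcidas, the tektin Tekt1 and the dynein light chain Dynlrb2 changed by -6.27 ± 0.56, -5.64 ± 0.49 and -5.88 ± 0.59, while Foxj1, the master regulator of motile cilia, had 84.1 ± 24.7 CPM in wild type and 90.8 ± 9.41 CPM in homozygotes (SD, adjusted p = 0.678). Tuft cell genes were lower in 8 of 19 and higher in 2 (median -0.6), beside 23.1% and 19.5% of all genes. Pou2f3, the factor that specifies tuft cells, did not pass (adjusted p = 0.181).

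Of 17 lineage transcription factors, 5 were lower and 3 higher (median -0.18), shares near the 23.1% and 19.5% of all genes. Foxi1, the ionocyte factor, fell from 13.8, 14.1 and 11.7 CPM to 0, 0.146 and 0.58 CPM (lowest, median, highest; log2 change -5.75 ± 0.45). The endocrine factor Insm1 and the microfold cell factor Spib changed by 1.18 ± 0.12 and 0.58 ± 0.11. Immature and basal mTEC genes were lower in 6 of 9, with Krt15 at -2.52 ± 0.27, and higher in 1, the integrin Itga6. Of 9 tested genes tied to Fezf2, the other regulator of antigen expression in mTEC, 4 were lower and 1 higher (median -0.49). Fezf2 itself had 1101 ± 160.5 CPM in wild type and 1328 ± 112 CPM in homozygotes (SD, adjusted p = 0.0645). Proliferation genes were lower in 5 of 15, beside 23.1% of all genes. In this list 2 were lower by DESeq2, with the Y-linked level as a term or without the filter, and 1 to 3 without any 1 of wild-type mice 86, 88 and 89 or of homozygous mice 84, 90, 92 and 93. Immediate-early and heat-shock genes were lower in 2 of 16 and higher in 1; without wild-type mouse 86, 1 was lower. Fewer cells of a type and less RNA per cell cannot be told apart in these bulk libraries.

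Markers of other cells moved in both directions, and their part in the results above was not tested. Of 12 tested thymocyte genes 3 were lower and 1, Cd4, was higher, beside 23.1% and 19.5% of all genes. The number lower was 1 without wild-type mouse 89, and 5 without homozygous mouse 93 or with the Y-linked level as a term. Of 13 macrophage and dendritic cell genes 8 were lower and 3 higher, and their summed level was 946 to 1142 CPM in wild type and 1329 to 1458 in homozygotes. Itgam and Adgre1 changed by -2.77 ± 0.33 and -2.22 ± 0.30, while Batf3, a dendritic cell factor, changed by 1.40 ± 0.14. B cell genes were higher in 2 of 5 and lower in 1, at a sum of 155 to 188 and 164 to 203 CPM. A single B cell gene was higher by DESeq2, with RLE factors, with the Y-linked level as a term, with only homozygous and wild-type libraries, and without homozygous mouse 83, 84 or 93 or any 1 of the wild-type mice.

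Over all genes tested, 19.5% were called higher and 23.1% lower, the shares to set beside each count of this paragraph. Of 8 stromal genes 2 were higher and 1 lower, with sums of 281 to 310 and 402 to 603 CPM. The proteoglycans Dcn and Lum changed by 2.21 ± 0.18 and 1.79 ± 0.35, and the collagen Col1a1 by -4.13 ± 0.24. Both tested erythroid genes were called, Slc4a1 lower with no count in homozygotes and Alas2 higher, at a sum of 27 to 44 and 37.4 to 46 CPM; the median of the pair was -3.49, or -2.6 with Slc4a1 at its bound. Cortical epithelial genes were higher in 4 of 11 and lower in 3 (median 0.05), at 3311 to 3956 CPM in wild type and 5560 to 7017 CPM in homozygotes in sum. Most of that sum was Tbata and Ccl25, while Psmb11, the defining proteasome subunit of cortical cells, had 3.37 ± 0.798 CPM in wild type and 1.53 ± 1.28 CPM in homozygotes (SD, adjusted p = 0.0871). The epithelial identity list was higher in 5 of 11 and lower in 2, Krt5 and Krt14.

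The genes lost in Aire -/- mice were also lost in C442G homozygotes. Of 1294 genes called at least 2-fold lower in the null line, 1241 were tested in the C442G line, where 1138 (91.7%) were called lower and 0 higher, beside 23.1% and 19.5% of all genes. Their median log2 change was -2.63, and 98.8% lay below 0 beside 50.1% of all genes. These genes took 4.48%, 4.93% and 5.15% of the counts in the wild-type mice and 0.925%, 0.995% and 1.08% (lowest, median, highest) in homozygotes. Every homozygote lay below every wild-type mouse. The set was chosen on other mice, with their own wild type.

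The genes that rose without Aire behaved likewise. Of 596 tested genes called at least 2-fold higher in the null line, 477 (80.0%) were called higher in C442G homozygotes and 3 lower (median 1.03). Over all genes tested, 19.5% were called higher and 23.1% lower. Their share of counts was 4.2% to 4.47% in wild type and 7.74% to 8.26% in homozygotes. With the set taken from Y86C homozygotes, 1912 of 2175 genes (87.9%) were called lower and 0 higher, with a median of -1.94, beside the same shares of all genes. Among 12929 genes tested in both lines, 1880 were called at least 2-fold lower in C442G and 2175 in Y86C. Both calls fell on 1702 genes, 90.5% of the C442G list and 78.3% of the Y86C list. Among 12558 genes tested in C442G and null, 1600 and 1241 were called so. The overlap with the null line was 1078 genes, 67.4% and 86.9% of the lists. The lines differ in the number of mice and in depth, so these shares do not rank the alleles.

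Genes lost in the null line, chosen on other mice, had a median log2 change of -1.1 in heterozygotes beside -2.63 in homozygotes. Against wild type, 1784 genes (13.1%) were called higher and 1826 (13.4%) lower in heterozygotes. Of the 2059 genes lost in homozygotes, 1297 (63.0%) were also called lower in heterozygotes, with a median log2 change of -1.05 beside -2.27 in homozygotes. Of the 656 raised genes, 540 (82.3%) were called higher in heterozygotes, with medians of 0.94 and 1.3. The comparisons share their wild-type mice, and the genes were chosen for a large change in homozygotes, which enlarges the homozygous medians, so these values are descriptions.

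The step from heterozygote to homozygote was called for 872 higher (6.4%) and 1926 lower genes (14.1%). It was called lower for 1368 (66.4%) of the 2059 lost genes and higher for 329 (50.2%) of the 656 raised ones; these genes were chosen on the same homozygous libraries, so the shares are descriptions and support nothing further. Saa3, Ccl5 and Apoa4 were called lower in homozygotes and not in heterozygotes. Saa3 had 1452, 2014 and 2350.5 CPM (lowest, median, highest) in heterozygotes, with log2 changes of 0.17 ± 0.19 against wild type (adjusted p = 0.557) and -2.23 ± 0.16 from heterozygote to homozygote (adjusted p = 1.17e-09). Cd52 had a log2 change of 1.21 ± 0.15 in heterozygotes (adjusted p = 4.71e-07) and of 0.07 ± 0.12 from heterozygote to homozygote (adjusted p = 0.743).

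The homozygous effect itself was compared between lines, each against its own wild type, in 1 fit over 35 libraries and 14277 genes. It differed between C442G and null in 781 genes (5.47%), 440 with the higher and 341 with the lower value in C442G. With RLE factors the split was 288 to 413, and DESeq2 called 298 higher of 734, so the balance of directions rests on the scaling. Without wild-type mouse 86 it was 127 to 306, and with 1 null homozygote or 1 null-line wild type left out the totals went down to 483 and 502. The thyroglobulin gene Tg had log2 changes of 1.19 ± 0.2 in C442G and -0.73 ± 0.25 in null (SE), a difference of 1.92 ± 0.32 (adjusted p = 0.000199). Cd200, an inhibitory surface ligand, had values of 0.91 and -0.96, and Crp of 0.5 and -1.52. The growth factor Gdf3 and the adhesion molecule Ncam1 had lower values in null, by differences of 2.05 and 1.85. Ncam1 had 0.04 in C442G. Its level in this fit was 3.63 and 4.06 CPM in C442G and null homozygotes, and 3.02 and 14.6 CPM in their wild types.

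In the other direction, haptoglobin (Hp) had log2 changes of -5.67 in C442G and -2.12 in null, a difference of -3.55 ± 0.56 (adjusted p = 0.000297). The elastase Cela2a, the kallikrein Klk12 and Dynlrb2 had lower values in C442G too, by differences of -4.39, -3.38 and -3.51. Without 1 of the null homozygotes the value of Cela2a was -1.55 (adjusted p = 0.571). Klk12 had 1 count in the C442G homozygotes, so its fitted value depends on the prior count. Mir7078, a microRNA gene inside Cmip, had log2 changes of 3.23 in null and -0.26 in C442G. Its level in this fit was alike in C442G and null homozygotes, at 48.6 and 43.7 CPM. Their wild types had 60.6 and 4.39 CPM. Tags there cannot be told from those of Cmip. Of 19 tuft cell genes 6 had called differences, all lower in C442G, beside 341 lower of all 14277 genes. The median difference of the list was -1.15, against 0.03 over all genes. Avil, Ltc4s, Ptgs1, Bmx, Alox5 and L1cam were these genes, and the list's median change was -0.57 in C442G and 0.4 in null. In Y86C the median of the tuft list was -1.13, and 0 of its genes had a called difference between C442G and Y86C. Of the NF-kB list 3 of 17 were higher in C442G, Relb, Traf6 and Nfkbie, by 0.59 to 0.63, beside 440 higher of all 14277 genes. The median change of this list was 0.5 in C442G, 0.32 in null and 0.77 in Y86C. Aire had log2 changes of 1.1 ± 0.11 in C442G and 0.66 ± 0.11 in null, a difference of 0.44 ± 0.15 that did not pass (adjusted p = 0.072).

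Against Y86C, an allele in the CARD domain, 44 genes (0.308%) differed, 14 higher and 30 lower in C442G. The split was 13 to 13 with RLE factors, and 138 genes were called by DESeq2. Fam25c had log2 changes of -4.42 in C442G and -6.09 in Y86C, a difference of 1.66 ± 0.37 (adjusted p = 0.0434). The kallikrein Klk1b24, the hepcidin Hamp2, Ankrd1 and the sphingosine receptor S1pr3 also had the higher value in C442G, by 4.05, 1.59, 1.56 and 1.5. Klk1b24 had 2 counts in the Y86C homozygotes, so its fitted value there depends on the prior count. Adrm1, Sept1, Ntan1, Aim2 and Dusp10 had the lower, by -0.98 to -1.35. Adrm1 had 96.9 CPM in wild type and 71 CPM in homozygotes of the C442G line, but 7.66 and 14 CPM in the Y86C line. Sept1 had 72 and 54.6 CPM, and 16.7 and 32 CPM. Ankrd1 had 6.04 and 10.8 CPM, and 20.6 and 11.5 CPM. What part such unlike wild-type levels play in the differences was not tested. The calls against Y86C rest on few libraries. Without wild-type mouse 86, 0 genes were called by edgeR (1355 at an unadjusted p under 0.05), likewise 0 without Y86C homozygote 4 (1481 at an unadjusted p under 0.05), and 89 without wild-type mouse 88. Aire differed by -0.31 ± 0.16 (adjusted p = 0.458).

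**Figure D5:**
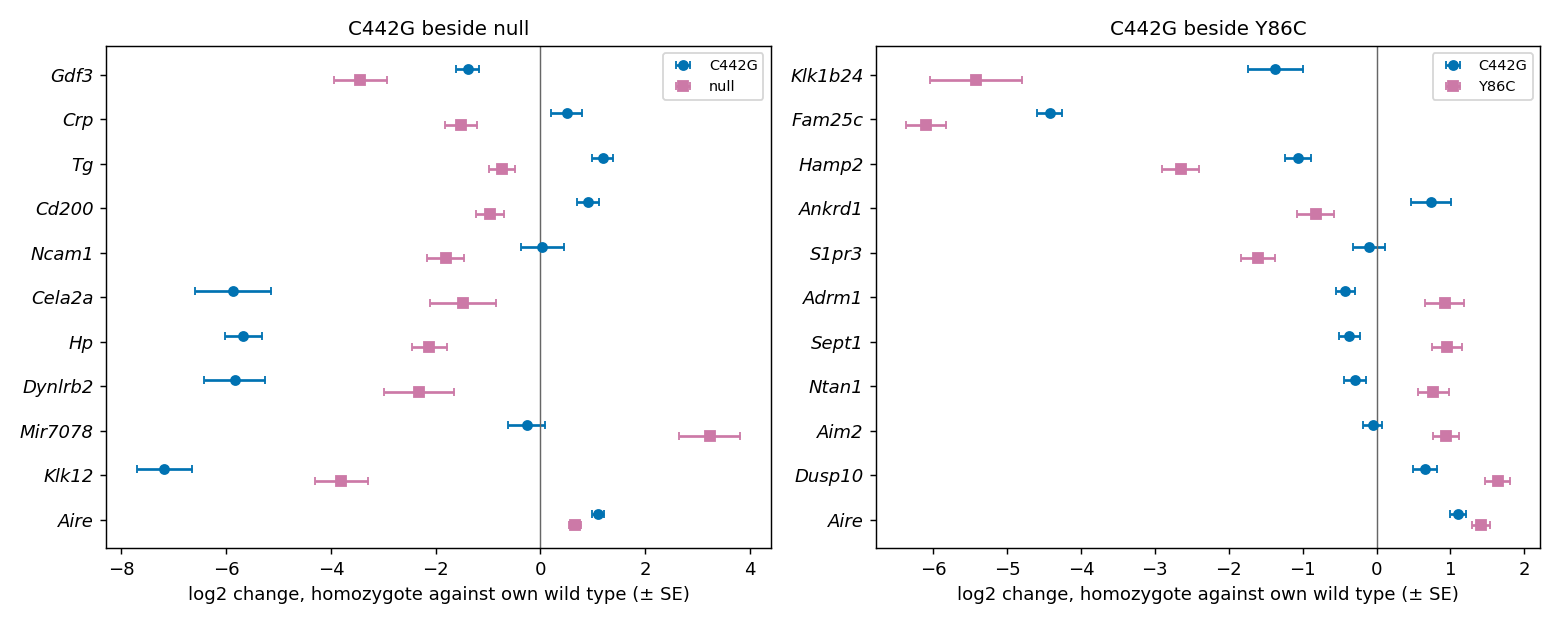
Log2 change of homozygotes against their own wild type (± SE) in C442G (circles) and in the null or Y86C line (squares), for the genes with the largest called differences and for Aire. Tg, Cd200 and Crp lie on opposite sides of 0 in C442G and null, Hp and Cela2a lie further down in C442G, and Aire lies above 0 in all 3 lines.

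Lost genes stood next to each other in the genome. Of 13162 tested genes placed on GRCm38 (GENCODE vM21), 2009 were called at least 2-fold lower, and 48.0% of these had an adjacent tested gene that was too, against 22.8% of the genes that did not fall. For raised genes the shares were 24.4% and 8.27%. Many neighbours are paralogs that may share tags, and no test was made. The longest unbroken run held 30 genes at chr3:92339140-93019060, the epidermal differentiation complex from Sprr2d to Lce1m, with a median log2 change of -5.29. Others were 14 kallikrein genes at chr7:43690418-43980376 (median -2.9), 11 Bpif genes at chr2:153875045-154320646 (-5.45), and 10 mast cell protease, granzyme and neighbouring genes at chr14:56017971-56388550 (-6.01). A run of 9 genes at chr5:120786226-121010092 held 8 Oas1 family members and Rph3a (-3.08).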

How the data were processed

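The authors' deposited table for the C442G line holds raw counts per gene for 14 libraries of mTEChi bulk MARS-seq. It also holds their own DESeq2 log2 fold changes with a p-value and an adjusted p per gene, deposited by the authors for wild type over homozygote and used here only where named. Reads were handled with bcl2fastq, cutadapt, STAR 2.4.2a, HTSeq and DESeq2 on mm10, per the submitters' processing notes. The strand setting, the annotation and the treatment of molecular identifiers are not given in the sources used here. The tables list genes whose highest count is at least 6. Mice are known by number only.

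Counts were fitted with edgeR 4.0.16 (R 4.3.3, TMM factors, filterByExpr, quasi-likelihood F test, Benjamini-Hochberg adjustment over all tested genes) with all 14 libraries of the line in the fit, so that heterozygotes share the estimate of spread. The SE is the log2 change divided by the square root of F. Lines were compared as a difference of homozygous effects in 1 fit over 35 libraries and 14277 genes. The same comparisons were repeated with DESeq2 1.42.0, with RLE factors, without the filter, with only the homozygous and wild-type libraries, with the Y-linked gene level as a term (for the comparisons with heterozygotes chosen after seeing the data) and with each library left out in turn. On simulated data for homozygote against wild type (13176 genes), 62, 64 and 66 genes were changed 1.5-fold, 2-fold and 4-fold. These are far fewer than were called in the real data. Recovery was 29%, 70.3% and 97%, with 4 false calls.

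The members, gene lists and sets were chosen with earlier results of these data known. The genes named were Aire; the 10 largest changes each way among called genes without overlap between groups; the 6 most abundant genes called at least 2-fold each way; up to 4 members per list by p; and the 5 largest called differences each way between lines. The largest changes needed a mean of 10 CPM in some group, and predicted genes with Gm-number or Rik symbols were skipped. Other genes were named after their values were seen. Gene positions are those of GENCODE vM21 on GRCm38. No column of another sample was used. Some items are not reported here.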

Additional observations from a re-analysis of the deposited data

Results flagged for a closer look

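Of 35 quantities tested over the 6 homozygotes for a library far from the others, 2 were flagged, and chance flags about 1 in 20 groups. Ctla4 stood at 86.9 CPM in homozygous mouse 83, where the other homozygotes had 58.3 to 67.6 CPM. Defa21 had 0.291 CPM in homozygous mouse 93, which is 1 count, and 0 in the others.

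The tested difference of the homozygous effect between C442G and the null line, on the log2 scale, flagged 10 named genes. It was higher in C442G for Gdf3 (2.05), Crp (2.02), Tg (1.92), Cd200 (1.86) and Ncam1 (1.85), and lower for Cela2a (-4.39), Hp (-3.55), Dynlrb2 (-3.51), Mir7078 (-3.49) and Klk12 (-3.38). Crp, Tg, Cd200, Hp and Mir7078 were called under all 19 alternatives, Cela2a under 18, Ncam1 under 15, Gdf3 under 13, Klk12 under 7 and Dynlrb2 under 6.

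Against Y86C, 10 further genes were flagged by the same test. The difference was 4.05 for Klk1b24, 1.66 for Fam25c, 1.59 for Hamp2, 1.56 for Ankrd1 and 1.5 for S1pr3. It was -1.35 for Adrm1, -1.32 for Sept1, -1.06 for Ntan1, -0.99 for Aim2 and -0.98 for Dusp10. No one of these 10 was called under every alternative: Sept1 was called under 15 of 18, Hamp2 under 14 of 18, and Dusp10 under 3 of 18.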

How the results depend on the processing

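No paired analysis was possible because the mouse numbers of the C442G groups are all different and pair no samples. Calls between homozygotes and wild type numbered 5802, with 5425 by DESeq2, 5727 with RLE factors, 7157 without the filter, 5877 with only these libraries and 5105 to 5609 when a library was left out. Among 136 named genes and 14 alternatives, 0 reversed, and at most 9 lost their call, without wild-type mouse 88. Of 420 list counts, 389 stayed within 1.5 times. Heterozygote against wild type gave 2889 to 3717 calls and homozygote against heterozygote 2555 to 2774 with a library left out. The difference from the null line was called in 5.47% of genes and in 2.96% to 5.76% with a library left out, lowest without wild-type mouse 86. The difference from Y86C was called in 0.308% of genes, against 0.967% by DESeq2, 0.182% with RLE factors, 0.19% without the filter and 0% to 0.613% with a library left out. The median change of the genes lost in the null line was -2.63, against -1.11 with no fold limit and -1.94 for the Y86C set. The fall in detected genes was -1354.8 to -1234.8 with 1 wild-type mouse left out, where 2 against 6 mice cannot pass the threshold. The cause of these shifts was not tested. In simulated data, changes of 1.5-fold were recovered in 29% of genes. Far fewer genes were changed there than were called here, so recovery in these data may differ. What can be said of small changes stays limited.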

Other observations

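Nhlh2, a neuronal transcription factor gene, had 7880 counts (3105.1 CPM) in heterozygous mouse 85 and at most 2 counts in any other library of the C442G line. It was the only gene with at least 100 CPM in 1 library and under 1 CPM in all others.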
